A study of Mus musculus with 8 samples.

Results

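Lcn2, the transferrin receptor gene Tfrc and 8 other genes of iron handling were followed in the left ventricle of mice whose heart muscle makes extra miR-100, a microRNA. The 10 genes were taken by gene symbol, and each had 1 row among the 22206 rows of the array table, where 19572 rows carry a symbol. RNA of 8 male mice aged 8 weeks, described as untreated and as C57/BL6J, was hybridised to 8 arrays, 1 per mouse. The 4 wild type mice are labelled by genotype alone. The 4 miR-100 overexpressing mice were Cre positive and miR100flox/+, from a cross of miR-100flox/flox mice with B6.FVB-Tg(Myh6-Cre)2182/J, all on that background. Mice are numbered here by the replicate number in their labels. The Myh6 promoter drives Cre in heart muscle cells. Whether the wild type mice carried Cre or the unrecombined allele was not given in the sources used here, so effects of Cre and of miR-100 cannot be told apart. Litters and the time of tissue collection were not given either.

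Iron reaches most cells bound to transferrin, which the transferrin receptor takes up by endocytosis. Iron is then reduced, moved out of the endosome by the transporter DMT1, stored in ferritin or exported by ferroportin, and the liver hormone hepcidin removes ferroportin from the membrane. Inside the cell the iron regulatory proteins IRP1 and IRP2 bind iron-responsive elements in messenger RNAs. That binding stabilises transferrin receptor RNA and blocks ferritin translation when iron is scarce. Lipocalin-2, the product of Lcn2, binds iron-loaded bacterial siderophores and is made by neutrophils and by stressed epithelium and heart. Heart muscle needs much iron for its mitochondria and its myoglobin.

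The microRNA raised in these hearts and the start regions of the pair of members with the largest differences are shown first. MicroRNAs pair with messenger RNAs through the seed, bases 2 to 8, given in capitals below in the RefSeq sequence (GRCm38.p6, chr9:41531437-41531458, plus strand). Among RefSeq's mature mouse microRNAs, 3 share this seed.
miR-100-5p: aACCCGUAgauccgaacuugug
miR-99a-5p: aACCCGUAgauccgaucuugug
miR-99b-5p: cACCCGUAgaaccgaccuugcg
No row of the table carried the name of Mir100 or its host gene Mir100hg (0 rows), so the overexpression itself was not checked. Target sites in transcripts were not searched here.

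RefSeq start regions (GRCm38.p6) were matched for 8 of the 10 members. The 250 bases before the Lcn2 start, at chr2:32387740-32387989 on the minus strand, are printed with motif matches in capitals. The capitals mark 1 match to the C/EBP letters TTNNGNAA, at -216 to -209 from the start, and 1 match to the GC box letters GGGCGG, at -94 to -89. Both matches lie on the opposite strand, and all motifs were searched on both strands.
Lcn2: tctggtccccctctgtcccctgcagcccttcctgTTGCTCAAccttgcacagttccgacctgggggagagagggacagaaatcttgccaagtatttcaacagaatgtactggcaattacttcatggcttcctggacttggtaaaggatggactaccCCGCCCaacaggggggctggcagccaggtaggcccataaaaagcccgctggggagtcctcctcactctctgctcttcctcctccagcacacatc
Of 32851 RefSeq windows of this length, 36.8% held the C/EBP letters and 32.7% the GC box letters, so both are common. The NF-kappaB motif, searched by its name, was in 3.9% of windows and had 0 matches in this one, which says only that those letters are not in these bases.

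RefSeq gives 2 starts for Tfrc. The 250 bases before the first, at chr16:32608646-32608895 on the plus strand, held 3 matches to the letters NCGTG, given in capitals. All 3 are on the opposite strand. NCGTG is looser than the hypoxia response core RCGTG, where R is A or G. The match CACGG at -164 to -160 reads CCGTG on its own strand and is not that core. The 250 bases before the other start held 5 matches to NCGTG, 4 on the gene's strand and 1 on the opposite strand. Among these 5, CACGG at -62 to -58 and TCGTG at -53 to -49 are not RCGTG either. This window also held 1 match to the GC box letters.
Tfrc: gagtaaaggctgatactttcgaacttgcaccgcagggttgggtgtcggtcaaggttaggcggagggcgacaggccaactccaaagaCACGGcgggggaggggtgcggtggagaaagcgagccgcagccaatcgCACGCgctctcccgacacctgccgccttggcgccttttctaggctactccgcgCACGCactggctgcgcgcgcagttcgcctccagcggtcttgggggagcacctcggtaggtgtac
The letters NCGTG stood in 55.4% of all windows. They overlap the E-box letters CACGTG, which were in 6.02% of windows and in 0 of the windows of either Tfrc start. These matches are a description of letters, not of binding.

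Values below are log2 signals as deposited, so a difference of 1 is a doubling of signal, and each difference is the miR-100 mean minus the wild type mean. Standard errors (SE) and 95% confidence intervals come from a limma fit over all rows. Signals of different genes come from different probes, so a row's place against the median signal of the table is only a rough guide to level. The members were chosen with the results of this contrast known, with Lcn2 chosen by its adjusted p over all rows. The others joined it for their role in iron handling. Their differences are therefore given as descriptions, without p-values. The arrays correlated with each other between 0.988 and 0.993. On the first principal component mouse 2 of each group lay apart from the rest of its group. Wild type mouse 2 scored -38.2, and the wild type scores otherwise ran from -13.0 to -3.49. The score of miR-100 mouse 2 was 30.8, and the miR-100 scores otherwise ran from 8.96 to 13.5. Heart muscle markers such as Myh6 and Tnnt2 were bright on every array, with means over 9 markers of 18.21 to 18.27 in wild type and 18.23 to 18.25 in miR-100 hearts.

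Lcn2 and Tfrc were higher in every miR-100 heart than in any wild type heart, Ireb2 was slightly lower in every miR-100 heart, and the ferritin genes had nearly the same signal in both groups. Hamp and Slc40a1, which encode hepcidin and its target ferroportin, had intermediate differences in opposite directions with overlapping groups. Hepcidin acts on ferroportin protein, which was not measured, and a link between these 2 RNA differences was not tested. By the limma fit over all rows (adjusted p under 0.05), 1 of the 10 members was called, Lcn2, where 0.14% of all rows were called (0.0946% higher and 0.045% lower). Since that contrast guided the choice of members, nothing is read from the count, nor from the counts of groups apart and the median that follow. In 3 of the 10 members the groups did not overlap, against 4.54% of all rows. Of these 3, 2 were higher in miR-100 hearts (2.21% of all rows) and 1 was lower (2.33% of all rows). The median difference of the members was 0.09, and that of all rows -0.015.

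**Figure D1:**
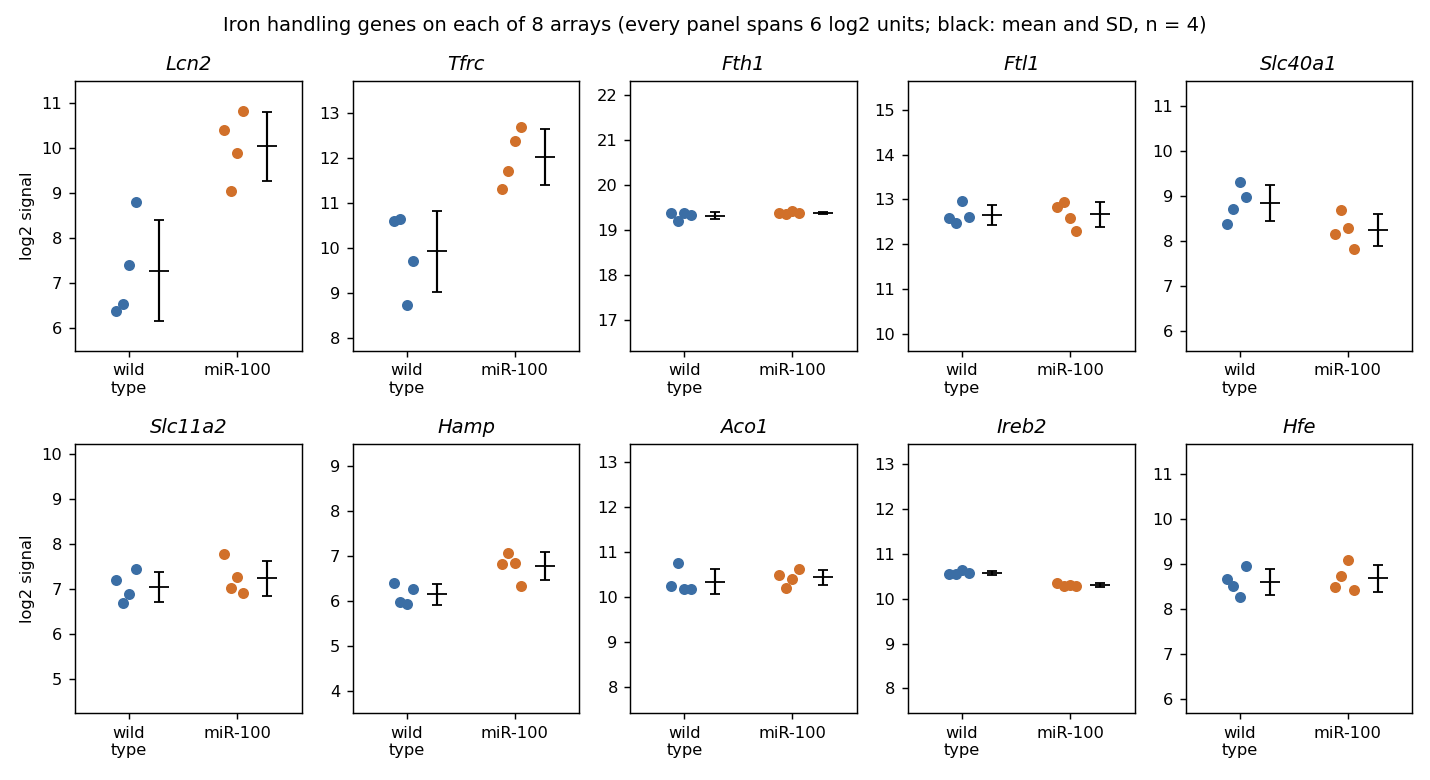
Log2 signal of the 10 genes on each array, with 1 point per mouse, wild type in blue and miR-100 overexpressing in orange, and the mean and SD (n = 4) in black. Every panel spans the same range of log2 units, and the groups are apart for Lcn2, Tfrc and Ireb2.

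Lcn2 encodes the siderophore-binding lipocalin. Its log2 signal in wild type mice 1 to 4 was 6.37, 6.53, 7.41 and 8.81. In miR-100 mice 1 to 4 it was 10.40, 9.04, 9.90 and 10.83. The groups did not overlap, but wild type mouse 4 came within 0.23 of the lowest miR-100 array, and the wild type hearts spread over 2.44 log2 units. The group means were 7.28 ± 1.12 and 10.04 ± 0.77 (SD, n = 4 each), a difference of 2.76 (SE 0.48, 95% interval 1.73 to 3.79). That is 6.79-fold, with an interval from 3.33-fold to 13.8-fold. Over all rows this was rank 14 of 22206 by size of difference.

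When mice were left out one at a time, the Lcn2 difference was smallest, 2.46, with wild type mouse 1 absent and largest, 3.27, with wild type mouse 4 absent. Lcn2 was called in 2 of these 8 fits, in the absence of wild type mouse 4 and of miR-100 mouse 2. The call was lost in the absence of any of the other wild type mice (1, 2 and 3) or of miR-100 mice 1, 3 and 4, and also with an intensity trend and robust moderation, array weights or quantile normalization.

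Tfrc encodes the receptor that brings transferrin-bound iron into the cell. Wild type mice 1 to 4 had log2 signals of 10.60, 10.65, 8.74 and 9.70, and the miR-100 mice had 11.31, 11.72, 12.38 and 12.69. All 4 miR-100 arrays were above all 4 wild type arrays, with 0.66 between the nearest values. The means were 9.92 ± 0.90 and 12.02 ± 0.63 (SD, n = 4 each), a difference of 2.10 (SE 0.39, 95% interval 1.26 to 2.95), or 4.29-fold (2.39-fold to 7.72-fold). This difference ranked 20 of 22206 by size, yet Tfrc was not called in the fit over all rows. Nor was it called in any fit with a mouse left out (0 of 8), where its difference ranged between 1.71 (wild type mouse 3 absent) and 2.35 (wild type mouse 2 absent).

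The arrays high for Lcn2 within the wild type group were not those high for Tfrc. Wild type mouse 4 had the highest Lcn2 and the third highest Tfrc signal of its group, and wild type mouse 2 the third highest Lcn2 and the highest Tfrc signal. Within the miR-100 group mouse 4 was highest for both genes.

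**Figure D2:**
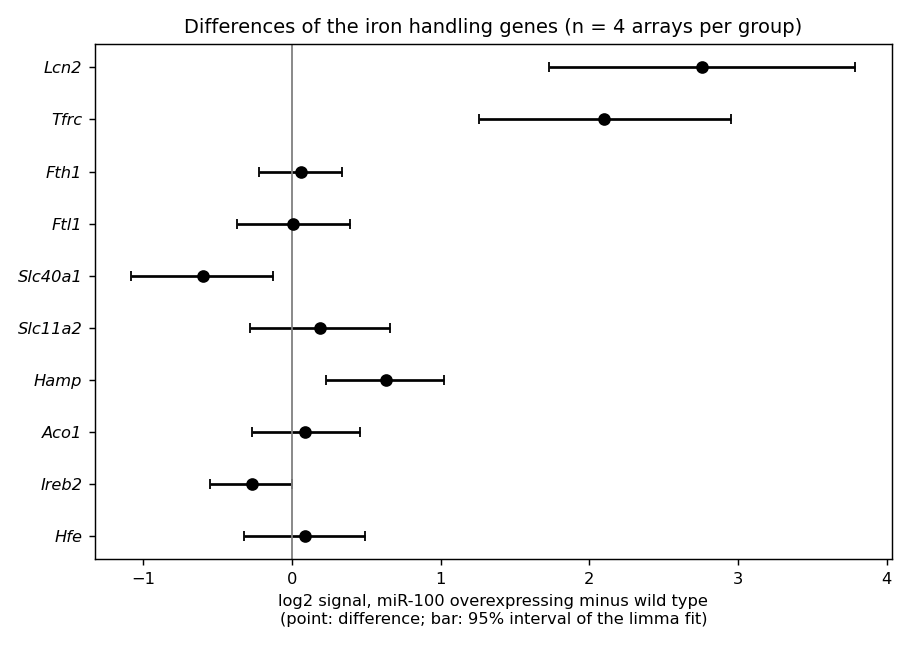
Difference in log2 signal between the groups for each of the 10 genes, as a point with the 95% interval of the limma fit (n = 4 arrays per group). Lcn2 at 2.76 and Tfrc at 2.10 lie far to the right, and the ferritin genes Fth1 and Ftl1 lie at 0.06 and 0.01.

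Hamp encodes hepcidin, the hormone that removes ferroportin, which the heart also makes locally. The wild type log2 signals were 6.41, 5.98, 5.94 and 6.27, and those of the miR-100 hearts were 6.83, 7.07, 6.86 and 6.34. Of the miR-100 arrays 3 were above every wild type array, and mouse 4 fell inside the wild type range. The difference was 0.63 (SE 0.18, 95% interval 0.23 to 1.02), or 1.54-fold. Mice carry a second hepcidin gene, Hamp2, of nearly the same sequence, and the probes may not tell both transcripts apart, so the Hamp signal is uncertain for that reason. Hamp2 averaged 6.36 ± 0.23 in the wild type group and 6.90 ± 0.04 in the miR-100 group (SD over 4 mice) and so differed by 0.54 (SE 0.15, limma adjusted p = 0.297), and did not pass. The Hamp2 groups did not overlap, as in 4.54% of all rows, with 0.27 between the nearest values.

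Slc40a1 encodes ferroportin, the iron exporter of the cell membrane, which resident macrophages express strongly. Its wild type log2 signals were 8.37, 8.71, 9.30 and 8.97, and its miR-100 signals were 8.16, 8.68, 8.29 and 7.81. Mice 1, 3 and 4 of the miR-100 group were below every wild type array, while mouse 2 lay within the wild type range. The difference was -0.60 (SE 0.22, 95% interval -1.08 to -0.13), a ratio of 0.659. Of 12 measured macrophage markers 0 passed and 2 had an unadjusted p under 0.05 in limma. Their differences were above 0 for 5 and below 0 for 7, with a median of -0.056, and the mean over the markers ran from 8.10 to 8.46 in wild type and from 8.08 to 8.32 in miR-100 hearts. The 2 markers, Lyve1 and Timd4, had differences of -0.64 and -0.54, neither of which passed (limma adjusted p = 0.469 and 0.468). The part of macrophage content in the Slc40a1 difference was not tested. In bulk tissue, fewer cells of a type and less RNA per cell cannot be told apart.

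Slc11a2 encodes DMT1, which carries iron out of the endosome. The wild type log2 signals were 7.20, 6.68, 6.88 and 7.44 and the miR-100 signals 7.78, 7.02, 7.26 and 6.90, so the groups overlapped. The difference of 0.19 (SE 0.22, 95% interval -0.28 to 0.66) was smaller than the SD of either group (0.34 and 0.39), and without miR-100 mouse 1 it was 0.01.

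The heavy and light chains of ferritin, encoded by Fth1 and Ftl1, form the shell that stores iron. Fth1 had 19.37, 19.20, 19.37 and 19.33 in wild type and 19.37, 19.36, 19.42 and 19.37 in miR-100 hearts. These values lie near the array's ceiling of 19.93, where differences are compressed, so the difference of 0.06 (SE 0.13, 95% interval -0.22 to 0.34) may understate one in RNA. Ftl1 was below the ceiling, with 12.58, 12.48, 12.97 and 12.60 in wild type and 12.83, 12.95, 12.59 and 12.30 in miR-100 hearts. Its groups overlapped throughout, and the difference was 0.01 (SE 0.18, 95% interval -0.37 to 0.39), from -0.08 to 0.13 when single arrays were left out. For Ftl1 the interval spans 0.774-fold to 1.31-fold. Ferritin is controlled mainly at translation, which these arrays do not measure.

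Aco1 and Ireb2 encode IRP1 and IRP2, the proteins that bind iron-responsive elements. IRP1 doubles as the cytosolic aconitase when it holds an iron-sulfur cluster, and IRP2 is degraded when iron is plentiful. Ireb2 had log2 signals of 10.55, 10.54, 10.63 and 10.56 in wild type and 10.35, 10.27, 10.30 and 10.27 in miR-100 hearts. All 4 miR-100 values were below all 4 wild type values with a gap of 0.19, and each group had an SD of 0.04. The difference was -0.27 (SE 0.13, 95% interval -0.55 to 0.0044), or 0.828-fold. The moderated error was wider than the groups' own spread, since limma draws the variance of each row towards that of the other rows. With single arrays left out the Ireb2 difference stayed between -0.29 and -0.25.

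Aco1 had 10.25, 10.76, 10.19 and 10.18 in wild type and 10.50, 10.21, 10.41 and 10.63 in miR-100 hearts. Wild type mouse 2 stood above the rest of its group, and the groups overlapped. The difference was 0.09 (SE 0.17, 95% interval -0.27 to 0.46), and 0.23 without wild type mouse 2. Hfe, the haemochromatosis gene whose product binds the transferrin receptor and signals to hepcidin, had 8.66, 8.50, 8.26 and 8.94 in wild type and 8.48, 8.73, 9.08 and 8.41 in miR-100 hearts. Its difference of 0.09 (SE 0.19) turned to -0.05 without miR-100 mouse 3.

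**Figure D3:**
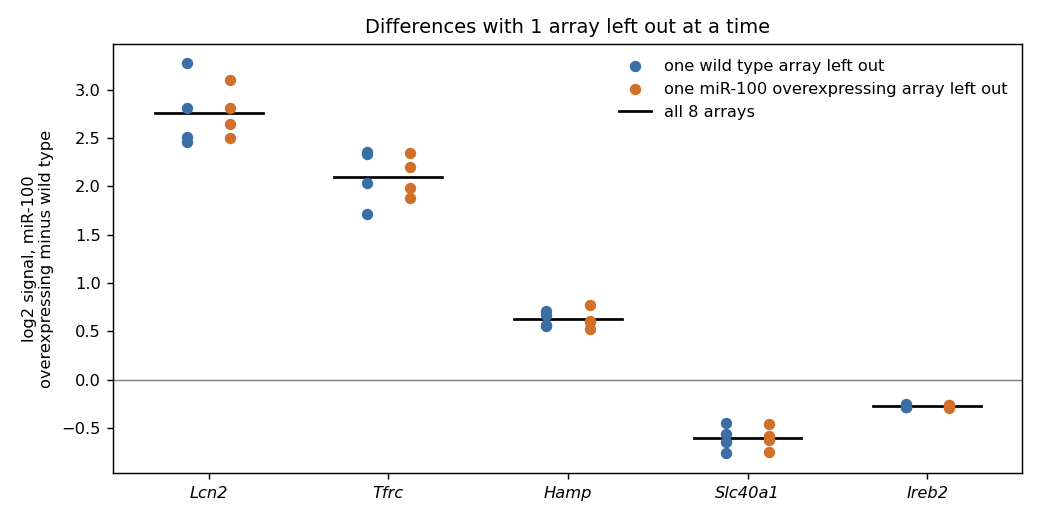
Difference in log2 signal of 5 genes with all 8 arrays (black line) and with 1 array left out at a time, 1 point per array, blue for a wild type and orange for a miR-100 overexpressing array. Lcn2 ran from 2.46 to 3.27 and Tfrc from 1.71 to 2.35, and Hamp, Slc40a1 and Ireb2 kept the sign they had with all arrays.

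The rest of the iron pathway was examined in 8 lists by role. Of 96 measured genes 0 passed over all rows in limma, where 0.14% of all rows passed, so nothing is read from that 0. At an unadjusted p under 0.05 there were 9 higher and 3 lower (12.5% of the 96 in all, against 7.73% of all rows). The count of genes that passed was also 0 in each of the 14 other fits, where 11 to 58 rows were called in all. These fits share arrays and call few rows, so the repeats add little. Differences were above 0 for 50 genes and below 0 for 46, with a median of 0.004, and the differences ran from -0.46 to 0.69. The lists were chosen with earlier results of these data known.

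Around Lcn2, 0 of 4 receptors and partners passed, and 0 had an unadjusted p under 0.05 in limma. Slc22a17, the cell-surface receptor for lipocalin-2, had 6.06 ± 0.19 and 5.91 ± 0.31 (SD, n = 4 each). Lrp2 or megalin, the endocytic receptor of the kidney, had a difference of -0.12 (SE 0.19). Mmp9, a protease that forms a complex with lipocalin-2, differed by 0.10 (SE 0.15) and Bdh2, proposed to make a mammalian siderophore, by -0.03 (SE 0.15). The 4 differences thus ran from -0.15 to 0.10, and 3 of the 4 rows were at or below the median signal of the table.

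In uptake, 0 of 13 genes passed and 2 had an unadjusted p under 0.05 in limma. Trf, the gene of transferrin itself, had 9.88, 10.22, 10.12 and 10.15 in wild type and 10.56, 10.84, 10.45 and 10.37 in miR-100 hearts. The ligand gene of the receptor thus had no overlap between groups, with a difference of 0.46 (SE 0.15), and it did not pass (limma adjusted p = 0.406). Cybrd1, an iron reductase, differed by -0.39 (SE 0.17, limma adjusted p = 0.611). The iron-permeable calcium channel gene Cacna1c differed by -0.06 (SE 0.13).

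For hepcidin control, 0 of 19 genes passed, with 1 (Hamp2) at an unadjusted p under 0.05 in limma. Hjv, which encodes the BMP coreceptor hemojuvelin and is expressed in striated muscle, had 13.95 ± 0.11 and 14.11 ± 0.06 (SD, n = 4 each). Bmp6, the iron-responsive ligand that induces hepcidin, differed by -0.19 (SE 0.17). Neo1, which binds hemojuvelin, differed by 0.30 (SE 0.16), and the second transferrin receptor gene Tfr2 by -0.03 (SE 0.15). None of these 4 passed (limma adjusted p from 0.709 to 0.984).

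Of the 3 genes that oxidise iron for loading on transferrin, 0 passed and 2 had an unadjusted p under 0.05 in limma. Cp encodes ceruloplasmin, with 13.85, 13.76, 13.73 and 13.84 in wild type and 14.93, 14.67, 14.50 and 13.85 in miR-100 hearts. Its wild type values lay close together, and miR-100 mouse 4 matched the highest of them. The difference was 0.69 (SE 0.20, limma adjusted p = 0.330), while Heph, or hephaestin, differed by -0.37 (SE 0.18) and its relative Hephl1 by -0.46 (SE 0.19).

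In storage, 0 of 6 genes passed, with 0 at an unadjusted p under 0.05 in limma. Ncoa4, the receptor that delivers ferritin to lysosomes, differed by 0.10 (SE 0.14). The iron chaperone gene Pcbp2 differed by 0.20 (SE 0.14) and the mitochondrial ferritin gene Ftmt by -0.11 (SE 0.15). Among 13 genes that control the iron regulatory proteins or carry their elements, 0 passed and 1 had an unadjusted p under 0.05 in limma. Fbxl5, the ubiquitin ligase subunit that marks IRP2 for degradation, had 10.11 ± 0.18 and 10.19 ± 0.08 (SD, n = 4 each). Nubp2 and Ciao1, of the cytosolic machinery that builds iron-sulfur clusters, differed by 0.32 (SE 0.14) and 0.29 (SE 0.15). The kinase gene Cdc42bpa, whose RNA carries an iron-responsive element, differed by 0.28 (SE 0.14).

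Of 18 genes of mitochondrial iron and iron-sulfur clusters, 0 passed and 1 had an unadjusted p under 0.05 in limma. The lowest unadjusted p belonged to the transporter gene Abcb10, with a difference of 0.42 (SE 0.19), and the next to the glutaredoxin gene Glrx5, at 0.27 (SE 0.13). Of 20 heme genes, 0 passed and 5 had an unadjusted p under 0.05 in limma, 4 of them higher. Alas1, the first enzyme of heme synthesis, had 15.33, 15.74, 15.05 and 15.58 in wild type and 15.88, 15.89, 16.22 and 16.23 in miR-100 hearts. The Alas1 groups did not overlap, and the difference was 0.63 (SE 0.18, limma adjusted p = 0.302). Abcb6, a porphyrin transporter, differed by 0.51 (SE 0.19), and Hmox1, the inducible heme oxygenase, by -0.27 (SE 0.25).

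**Figure D4:**
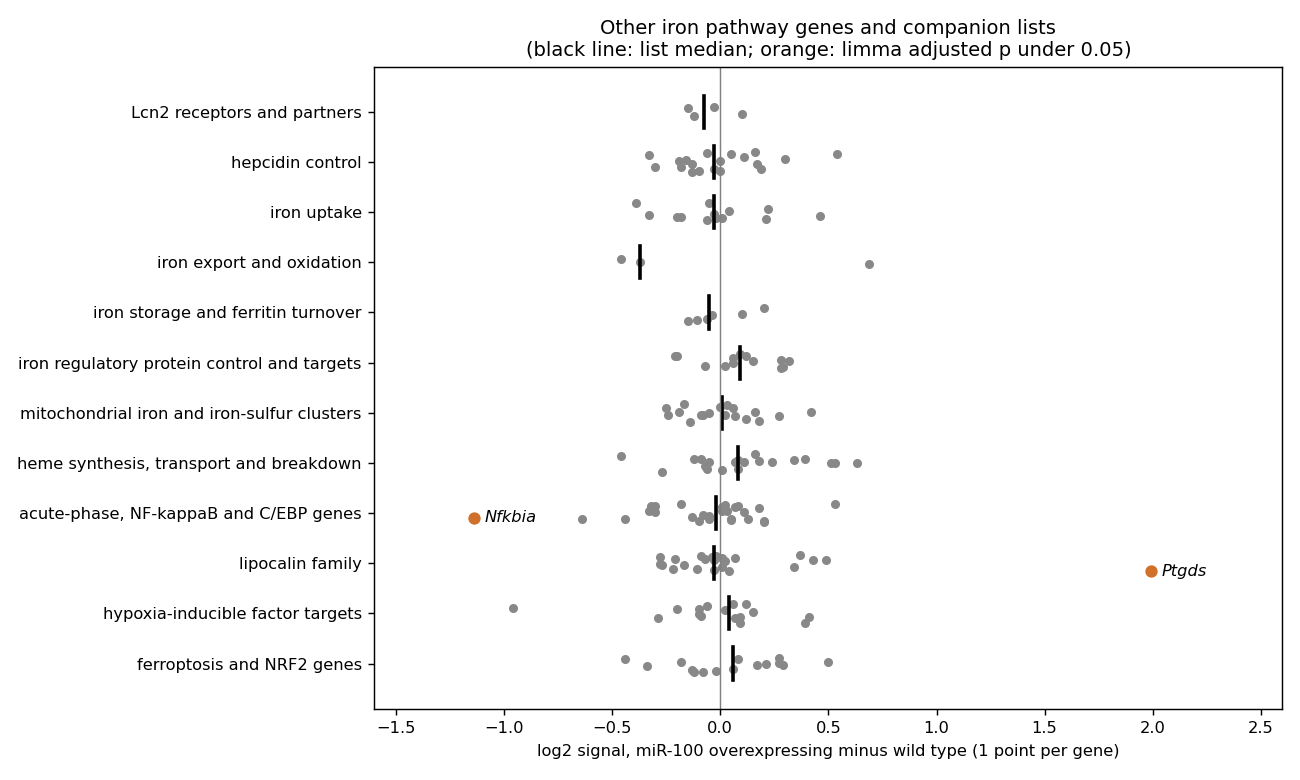
Difference in log2 signal for each gene (1 point) of the 8 iron pathway lists and 4 companion lists, with the list median as a black line and genes with a limma adjusted p under 0.05 in orange. Nfkbia at -1.14 and Ptgds at 1.99 are the genes in orange, and both belong to companion lists.

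Genes that often accompany Lcn2 or Tfrc were examined in 4 further lists, in which 2 of 80 measured genes passed, 1 higher and 1 lower, where 0.14% of all rows passed. At an unadjusted p under 0.05 there were 10 of the 80, 5 higher and 5 lower (12.5%, against 7.73% of all rows). These lists too were chosen with earlier results of these data known, so nothing is read from either count. Lcn2 is an acute-phase gene induced through NF-kappaB and C/EBP factors. In that list Nfkbia, the NF-kappaB inhibitor that is itself an NF-kappaB target, fell by 1.14 (SE 0.18, limma adjusted p = 0.0252), from 10.20, 10.44, 10.99 and 10.80 in wild type to 9.40, 9.37, 9.59 and 9.49 in miR-100 hearts. Its groups did not overlap, and the other 27 measured genes did not pass. The C/EBP genes Cebpb and Cebpd differed by -0.44 (SE 0.14, limma adjusted p = 0.399) and -0.64 (SE 0.29, limma adjusted p = 0.634). The list had 14 members above and 14 below 0 with a median of -0.022, and its largest positive difference was 0.53, for the haptoglobin gene Hp.

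Among 23 lipocalins and related binding proteins, Ptgds passed, with 1 of 23 called. Ptgds, a prostaglandin D synthase that is itself a lipocalin, had 14.03, 13.52, 14.59 and 15.28 in wild type and 16.77, 15.64, 16.63 and 16.34 in miR-100 hearts. As for Lcn2, wild type mouse 4 was the highest of its group and miR-100 mouse 2 the lowest. The other extremes differed. The lowest wild type signal was that of mouse 2 for Ptgds and mouse 1 for Lcn2. The highest miR-100 signal was that of mouse 1 for Ptgds and mouse 4 for Lcn2. The difference was 1.99 (SE 0.33, limma adjusted p = 0.0392), and the median of the list was -0.028. With a mouse left out, the 2 calls of the 4 lists fell to 0 where that mouse was wild type 2 or 3 or miR-100 1, 3 or 4, and to 1 in the remaining fits. An intensity trend with robust moderation also left 1.

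Tfrc is a target of hypoxia-inducible factors. The list for that response held 16 measured genes, targets and also the factors and their regulators, such as Hif1a, Arnt and Vhl. Of the 16, 0 passed and 2 had an unadjusted p under 0.05 in limma, in opposite directions. Ddit4, a stress-induced mTORC1 inhibitor, differed by -0.96 (SE 0.35), and Slc2a1, the glucose transporter GLUT1, by 0.41 (SE 0.17). The median of the list was 0.039. Of 15 genes of ferroptosis and the NRF2 response 0 passed, with 1 at an unadjusted p under 0.05 in limma. This was Nqo1, a quinone reductase, at -0.44 (SE 0.20), and the glutathione synthesis gene Gclm was next at -0.34 (SE 0.18).

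Markers of cells rich in Lcn2 or Tfrc were set beside the members. Neutrophils store lipocalin-2 in their granules, and of 13 measured neutrophil markers 12 were at or below the median signal of the table. Their mean ran from 4.13 to 4.32 in wild type and from 4.25 to 4.32 in miR-100 hearts. Among granule genes, the wild type and miR-100 means were 3.96 and 3.93 for Camp, 3.96 and 4.2 for Ngp, and 3.72 and 3.76 for Ltf. They were 4.95 and 4.79 for Mpo, 4.84 and 4.93 for Elane, 3.53 and 3.46 for Mmp8, and 3.17 and 3.27 for Mmp9. The marker above the median signal was S100a9, with means of 5.98 and 5.86. The list had 7 differences above 0 and 6 below, with a median of 0.043. The lowest unadjusted p belonged to S100a8, at -0.37 (SE 0.14, limma adjusted p = 0.519), and to Cxcr2, at 0.40 (SE 0.19, limma adjusted p = 0.646). Red cell precursors depend on the transferrin receptor. Of 14 listed erythroid markers 6 were measured, with means of 5.0 to 5.4 in wild type and 5.06 to 5.21 in miR-100 hearts, and 5 of the 6 had differences below 0. The part of either cell type in the Lcn2 and Tfrc differences was not tested.

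Over the marker lists of endothelial cells, fibroblasts, epicardium, adipocytes and atrial muscle, 0 markers passed in limma, and 3 had an unadjusted p under 0.05. Nppa, an atrial gene that loaded ventricles also make, was among them, with a difference of 1.04 (SE 0.19). The list medians ran from -0.117 for fibroblasts to 0.113 for adipocytes.

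Finally, rows whose pattern over single mice was most like that of Lcn2 or Tfrc were sought, using the Pearson correlation of deviations from the group means over the 8 arrays. For Lcn2 the nearest 5 named genes were Tvp23b (r = 0.983), Mrps7 (0.972), Olfr98 (0.972), Slc51b (0.967) and Med7 (0.958). For Tfrc they were Slc39a1 (r = 0.980), Pogk (0.968), Ephb4 (0.964), Gm10451 (0.963) and Senp8 (0.959). None of these 10 genes passed between groups in limma, and their differences ran from -0.20 to 0.19. With 8 arrays and 22206 rows to choose from, correlations of this size are a description of the nearest rows only. Slc39a1 encodes a zinc importer of the family that also holds the iron transporters Slc39a8 and Slc39a14.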

How the data were processed

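Left ventricular RNA of 8 mice was measured on Affymetrix arrays after TriPure extraction and biotin labelling with the WT Plus kit, per the labels' protocols. The authors deposited log2 signals per transcript cluster (probes against 1 transcribed region), for which the submitters' processing notes name Transcriptome Analysis Console 4.0. How they were normalized, and on which genome build, is not given in the sources used here. Column medians of 5.70 to 5.74 show a common scale, and values ran from 2.29 to 19.93. The number of arrays limits the precision.

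Symbols came from the platform annotation (19572 rows with 1, 0 with several, 2634 with none), updated through a RefSeq table (GRCm38.p6). All rows entered limma 3.58.1 in R 4.3.3, unfiltered and without covariates, with Benjamini-Hochberg adjustment over 22206 rows and a threshold of 0.05. In 10 simulations of this comparison with 22206 rows and 200 changed, limma recovered 70.9% of changes of 1 and 98.5% of changes of 2. The changed rows were drawn at random, with normal noise, so these shares are not those for rows as variable as Lcn2 or Tfrc. Arrays are taken as separate mice, so p-values reflect no spread beyond that of these 8 samples.

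The members, lists and alternatives were chosen with earlier results of these data known. By the naming rule, every member is named, and from each list the genes past the threshold or, with none, those with the 2 lowest unadjusted p-values, besides a fixed set of receptors, ligands and regulators. Cacna1c, Hp, Ciao1, Cebpb, Cebpd, the Slc39a genes and the markers named were chosen after their values were seen. The brightest row stood for a gene. Alternatives were quantile normalization, median centring, array weights, trend with robust moderation, a filter at the 25th percentile of row means, a replicate block and leaving out each array.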

Additional observations from a re-analysis of the deposited data

Results flagged for a closer look

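Of the 20 groups of 4 values of the 10 genes, 2 held a value far from the other 3 of its group, where about 1 in 20 would be flagged by chance. Aco1 in wild type replicate 2 was 10.76, where the rest of its group ran from 10.18 to 10.25. Fth1 in miR-100 overexpressing replicate 3 was 19.42, where the rest ran from 19.36 to 19.37, a small step near the ceiling of the array.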

How the results depend on the processing

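Across the 14 other settings, 8 of the 10 genes kept the sign of their difference. Ftl1 kept it in 9 and Hfe in 12, and both differences were near 0. No difference moved by as much as the SD between replicates. The count of called rows, 31 in all, was 58 with an intensity trend and robust moderation and 11 to 27 when single arrays were left out. The count of called members, 1, was 0 with trend and robust moderation, with array weights and with quantile normalization, and 0 to 1 without single arrays. The 2 calls of the companion lists became 1 with trend and robust moderation and 0 to 1 without single arrays. The cause was not tested. With the replicate number as a block (replicate block), 21 rows and 1 member were called. Same-numbered arrays had deviations correlated between -0.06 and 0.066, so no shared deviation was seen over all rows. Litters and handling were not given, so this cannot decide whether the numbers pair the mice.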
